A study of Mus musculus with 16 samples.

Results

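Epoxide hydrolases are enzymes that add water to the strained oxygen ring of an epoxide and so turn it into a diol. Ephx1 encodes the microsomal enzyme, which sits in the membrane of the endoplasmic reticulum and is best known for detoxifying foreign epoxides. Ephx2 encodes the soluble enzyme, which takes epoxyeicosatrienoic acids (EETs), lipid signals that cytochrome P450 epoxygenases make from arachidonic acid, to the corresponding dihydroxy acids (DHETs). A cell's EET level therefore depends on how much is made by epoxygenases, stored in phospholipids and removed by hydrolysis, and the study behind these data examined 14,15-EET and its removal by EPHX2 in endometriosis. The 2 genes were taken by their names from the 57010 genes counted in mouse granulosa cells (mGCs), the hormone-producing support cells of the ovarian follicle.

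The first experiment held freshly isolated mGCs of 5 sham-operated mice (Con group) and 5 mice with induced endometriosis (EM group). All were female ICR mice operated on at 6 weeks of age, and EM mice carried endometrium that had been sewn onto the bowel mesentery, taken from estradiol-treated donors. Recipients kept their ovaries, received 17β-estradiol every other day for 14 days, had a washout of 2 weeks and were brought to ovulation with PMSG or HCG at day 30. Whether sham mice also received estradiol is not clear from the methods. The second experiment held mGCs of 6 EM mice in culture medium with 5% serum, divided into 2 parts. After 24 h, 14,15-EET at 100 nM (EET group) or the same volume of buffer (PBS group) was added for another 24 h, with 3 libraries in each group. This timing follows the study's text, while the sample labels give PBS cells 24 h of culture in all and EET cells an added 24 h of treatment, so time in culture may differ between PBS and EET. All 6 cultured libraries therefore came from EM mice, no cultured library came from sham mice, and the animals behind each library are not given. The methods call the cultured libraries paired, but do not say which PBS library pairs with which EET library, nor how the 6 mice were spread over them, so p-values there may measure technical spread.

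Granulosa markers were high in the fresh libraries: the 10 genes of the list summed to 12400 to 16821 CPM (counts scaled to a common library size, with TMM factors for library composition) in the Con group and 7153 to 22320 CPM in the EM group. Each of the 10 passed the filter on low counts there. In culture the same list summed to 5034 to 5467 CPM in PBS and 4506 to 4854 CPM in EET. Of its defining genes, the aromatase gene Cyp19a1 stood at 0.146 ± 0.164 CPM in PBS (SD, n = 3). In fresh cells it was at 313 ± 208 CPM in EM and 253 ± 43.4 CPM in Con (SD, n = 5). PBS cells also came from EM mice, and fresh and cultured libraries were scaled separately. Amh was at 0.263 ± 0.104 CPM and Fshr at 4.49 ± 0.380 CPM in PBS (SD, n = 3), so these granulosa markers were nearly absent from the cultured cells, while Foxl2 and Inha remained at 127 ± 7.72 CPM and 2471 ± 226 CPM. Library EM-3 stood apart from the other fresh libraries, with 21.8% of its counts on mitochondrial genes against 6.76% to 11.1% in the other 9. Its red blood cell markers summed to 17413 CPM, against at most 6147 CPM in any other fresh library.

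Ephx1 (ENSMUSG00000038776) lies on the minus strand of chromosome 1 at 180803775 to 180848469, and Ephx2 (ENSMUSG00000022040) on the minus strand of chromosome 14 at 66321823 to 66361949, both in GRCm39. The study's own mouse Ephx2 qPCR primers are shown so that the part of Ephx2 its assay was aimed at can be placed, and were matched to the 141767 transcripts of GENCODE M21, an annotation of GRCm38. Capitals mark bases found in each of the 3 annotated Ephx2 transcripts, read on the opposite strand.
forward: ggtgccctgtccatacgtc
reverse: ACGGGCTGGCTTCAGATTAC
The reverse primer fell within exon 5 of the 19 exons of Ephx2-201, at bases 628 to 647 of 2035 counted from the transcript's 5′ end, and matched no transcript of another gene. The forward primer was found in 0 of the transcripts, and its nearest stretch in an Ephx2 transcript differed at 8 of its 19 bases. The counts do not depend on these primers, since reads along the whole gene were counted.

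Both genes were well covered, and Ephx2 was among the most abundant transcripts of these cells. Ephx1 had 1462 to 3706 reads and Ephx2 9606 to 33216 reads in each fresh library. In the cultured libraries Ephx1 had 2474 to 2846 reads and Ephx2 45308 to 64911 reads. Levels of different genes were compared as CPM per kb of exon in GENCODE M21 (1950 bases for Ephx1 and 2484 for Ephx2). On that scale the mean level of Ephx2 was rank 49 in Con and rank 32 in EM of 14380 protein-coding genes, and rank 19 in PBS and rank 22 in EET of 12831. Ephx1 was rank 334 in Con, 580 in EM, 853 in PBS and 848 in EET. Per kb, the level of Ephx2 was 4.22 ± 1.54 times that of Ephx1 in Con and 9.58 ± 2.65 times in EM (SD, n = 5), and 17.1 ± 2.55 times in PBS and 15.9 ± 1.42 times in EET (SD, n = 3). The soluble enzyme's transcript thus exceeded the microsomal one in all 16 libraries.

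**Figure D1:**
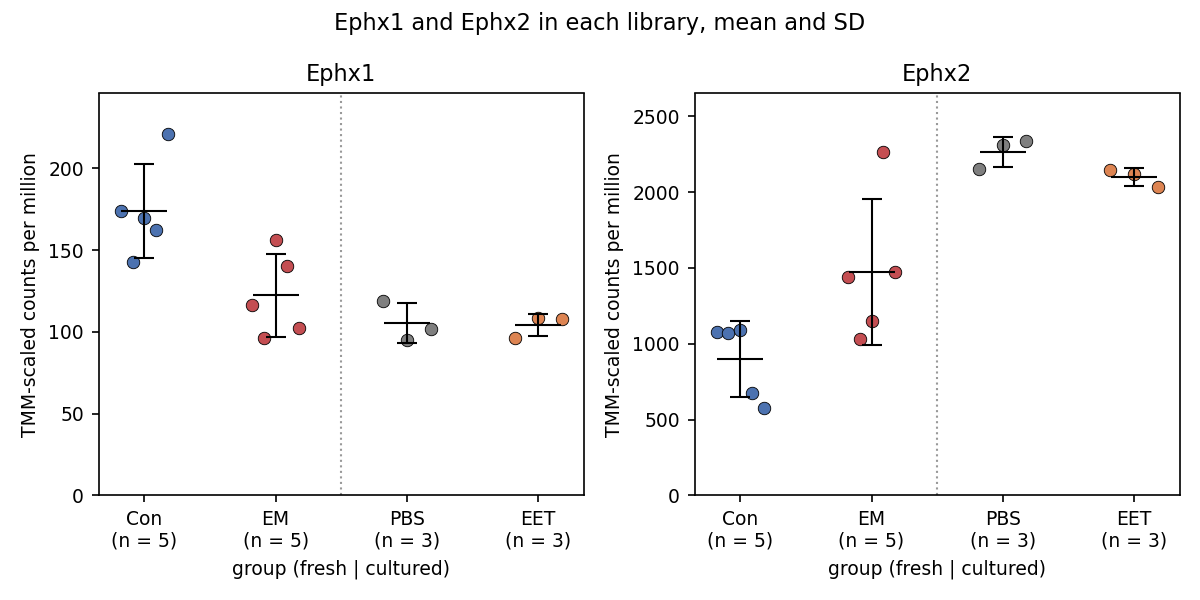
TMM-scaled CPM of Ephx1 (left) and Ephx2 (right) in each library of the Con, EM, PBS and EET groups, with the mean and SD as bars, and with the axis starting at 0. Con and EM were scaled together, and PBS and EET together, so levels across the dotted line were scaled separately. Ephx1 was lower and Ephx2 higher in most EM libraries than in Con, and the spread of Ephx2 was widest in EM.

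In fresh mGCs the 2 hydrolase transcripts differed between EM and Con in opposite directions, Ephx1 lower and Ephx2 higher, but neither passed the test across all genes. The comparison asks which transcripts differ in granulosa cells of mice with endometriosis. Ephx1 stood at 173.8, 142.9, 169.8, 162.3 and 221.1 CPM in Con-1 to Con-5, and at 116.2, 96.1, 156.4, 140.4 and 102.5 CPM in EM-1 to EM-5. Of the EM libraries, 4 were below all Con libraries, while EM-3, the library with the high mitochondrial share, was above Con-2. The group means were 174 ± 28.9 CPM in Con and 122 ± 25.5 CPM in EM (SD, n = 5). The log2 fold change was -0.51 (SE 0.15, 95% interval -0.84 to -0.17), with an unadjusted p of 0.00634 and an adjusted p of 0.430 in edgeR's quasi-likelihood test. Raw Ephx1 counts, not corrected for library size or composition, were 2331 to 3706 in Con and 1462 to 2058 in EM, without overlap. Mean total counts were also higher in Con, at 15407868 against 14605916 in EM. The share of all genes whose raw counts did not overlap was not taken, so these raw ranges are a description only.

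Ephx2 showed the reverse order. Its levels were 1080.0, 1069.9, 1088.4, 677.1 and 573.2 CPM in Con-1 to Con-5, and 1442.4, 1031.5, 1152.9, 2266.4 and 1472.5 CPM in EM-1 to EM-5. Here 4 EM libraries were above all Con libraries, and EM-2 was below 3 of them. EM-4 was the highest of all 10, and Con-4 and Con-5 were the lowest. The means were 897.7 ± 251.6 CPM in Con and 1473 ± 482 CPM in EM (SD, n = 5), a fold of 1.64 (95% interval 1.13 to 2.39). The log2 fold change was 0.71 (SE 0.25), with an unadjusted p of 0.0137 and an adjusted p of 0.462 in edgeR. Of the 17229 genes tested, edgeR called 0 at an adjusted p of 0.05 (0%), DESeq2 called 112, and 1626 (9.44%) had an unadjusted p under 0.05. Both hydrolases were in that last group, and neither was among the 1.69% of genes whose groups did not overlap. DESeq2 gave them adjusted p-values of 0.155 and 0.183, so neither tool called either gene. Without EM-3 the log2 fold changes were -0.61 for Ephx1 and 0.79 for Ephx2, with adjusted p of 0.461 and 0.513 in edgeR.

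The ratio of Ephx2 to Ephx1 counts within a library needs no scaling between libraries. It was 6.21, 7.49, 6.41, 4.17 and 2.59 in Con-1 to Con-5, and 12.4, 10.7, 7.37, 16.1 and 14.4 in EM-1 to EM-5. In EM, 4 libraries were above all Con libraries, and EM-3 was below Con-2 alone. The mean log2 ratio was 2.33 ± 0.62 in Con and 3.56 ± 0.44 in EM (SD, n = 5), a difference of 1.23 (SE 0.34) or 2.34-fold, with p = 0.0159 in a two-sided exact permutation test. The smallest p this design allows is 0.00794. After Benjamini-Hochberg adjustment over the 3 ratio comparisons made, the exact permutation p was 0.0476. Both genes were chosen with earlier results of these data known, and this adjustment does not account for that choice. Without EM-3 the difference in log2 ratio was 1.40, with an unadjusted exact permutation p of 0.0159. The adjusted exact permutation p was above 0.05 in 8 of the 10 cases with 1 library left out, at 0.0536 without Con-1, Con-3, Con-4 or Con-5 and 0.0857 without EM-1, EM-2, EM-4 or EM-5. The ratio combines both genes, and the test does not say which of them moved.

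**Figure D2:**
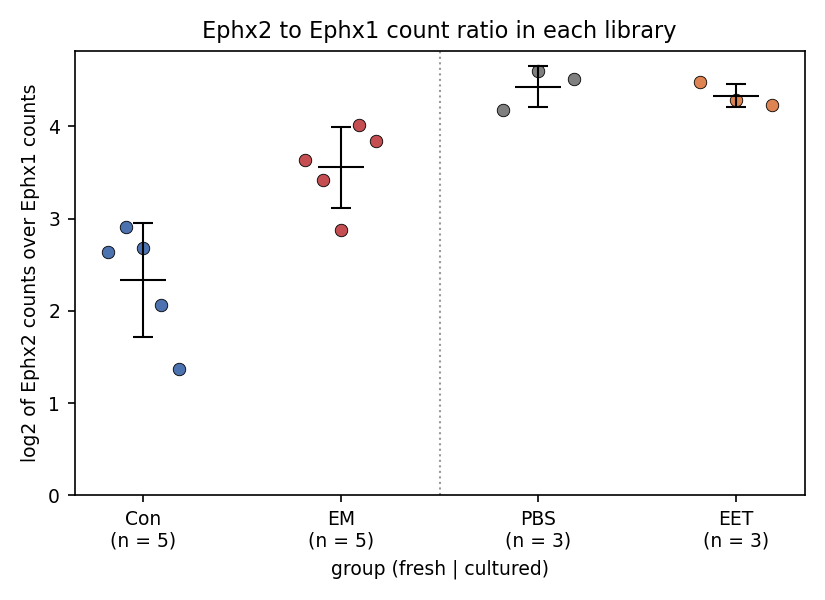
Log2 of Ephx2 counts over Ephx1 counts in each library, by group, with the mean and SD as bars. The EM libraries lie between 2.88 and 4.01 and the Con libraries between 1.37 and 2.90, and all 6 cultured libraries lie above 4.

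Summed markers of other cells also stood apart between the fresh groups. No single marker gene was called by edgeR, which called 0 of all 17229 genes tested. The stromal list (Dcn, Lum, Col1a1, Col1a2, Pdgfra and Tcf21) summed to 938 to 1091 CPM in Con and 386 to 886 CPM in EM, and the smooth muscle list (Myh11, Actg2, Cnn1, Des and Rgs5) to 101 to 131 CPM in Con and 50.1 to 97.7 CPM in EM. Neither sum overlapped between the groups, and both were lower in EM. Of all single genes tested, 1.69% did not overlap between the groups and 9.44% had an unadjusted p under 0.05 in edgeR. In the stromal list 0 of the 6 genes were called by edgeR and 2 had an unadjusted p under 0.05, and in the smooth muscle list 0 of 5 and 3. Of the stromal genes 1 was higher in EM (Dcn, log2 fold change 0.16), and of the smooth muscle genes 1 (Des, 0.00). Most of the stromal sum came from Col1a1 and Col1a2. They stood at 395 ± 53.8 and 417 ± 29.4 CPM in Con and 202 ± 67.9 and 279 ± 83.5 CPM in EM (SD, n = 5). Neutrophil markers went the other way, with sums of 3.04 to 38.1 CPM in Con and 28.0 to 158 CPM in EM, with overlap, led by S100a9 at 6.24 ± 7.71 CPM in Con and 47.2 ± 31.9 CPM in EM (SD, n = 5), and 4 of 4 tested had an unadjusted p under 0.05 with 0 called. The remaining lists overlapped between Con and EM: luteal (7244 to 10900.3 and 6300 to 12424 CPM), theca (821 to 1008 and 516 to 882 CPM), endothelial (155 to 182 and 86.7 to 157 CPM), surface epithelial (144 to 219 and 90.5 to 207 CPM), macrophage (119 to 205 and 93.0 to 230.3 CPM), oocyte (344 to 763 and 104 to 793 CPM) and red blood cell (3775 to 5940.3 and 2648 to 17413 CPM). Of the 7 luteal genes 6 were higher in EM and 2 had an unadjusted p under 0.05 in edgeR. Of the 6 endothelial genes 0 were higher and 2 had such a p. EM-4, highest in Ephx2, had the lowest granulosa sum of the fresh libraries (7153 CPM). EM-2, the EM library lowest in Ephx2, had the highest (22320 CPM). In bulk RNA, fewer cells of a type and less RNA per cell cannot be told apart, and the part of these cells in the Ephx1 and Ephx2 differences was not tested. In the 6 cultured libraries S100a8, S100a9, Ly6g and Retnlg were at 0 counts, while Camp stood at 0.918 ± 0.343 CPM in PBS and 1.45 ± 0.134 CPM in EET (SD, n = 3). Endothelial markers summed to at most 3.42 CPM and red blood cell markers to at most 0.285 CPM. Stromal markers still summed to 197 to 270 CPM in PBS and 224 to 229 CPM in EET, and smooth muscle markers to 20.3 to 21.7 CPM and 18.4 to 23.5 CPM. Ephx2 stood at 2036 CPM or more and Ephx1 at 95.2 CPM or more in the cultured libraries. What this means for the fresh libraries was not tested.

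**Figure D3:**
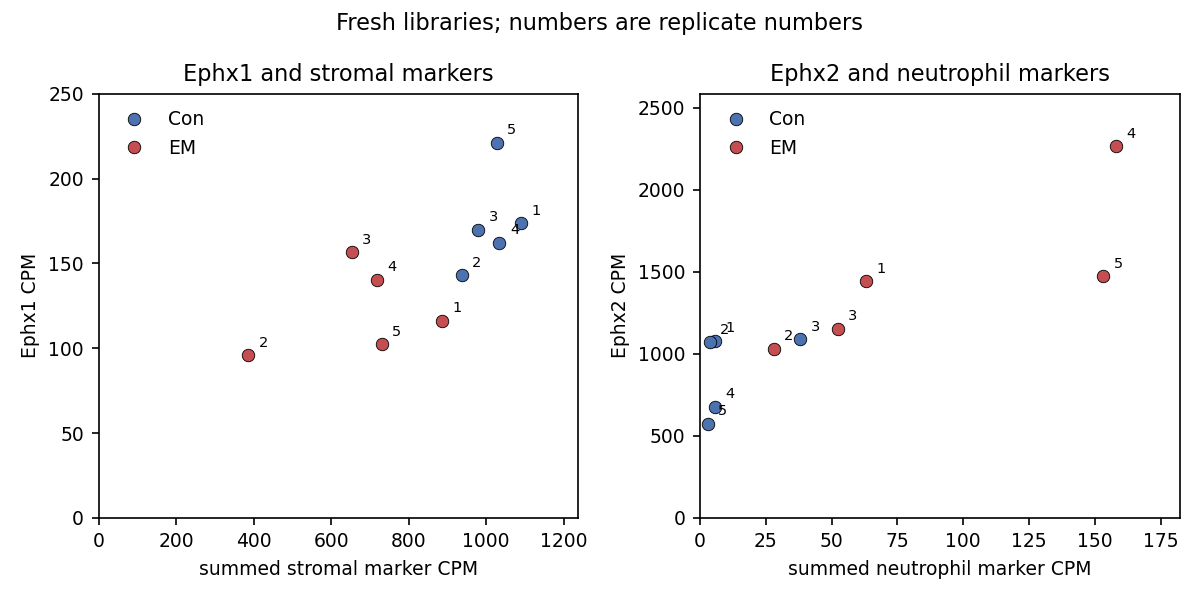
Ephx1 CPM against the summed CPM of 6 stromal markers (left) and Ephx2 CPM against the summed CPM of 6 neutrophil markers (right) in the 10 fresh libraries, labelled by replicate number. These lists were chosen for the plot after their values were seen. Con libraries lie to the right of all EM libraries on the stromal axis, and EM-4, highest in Ephx2, is also highest in neutrophil markers. Most of the stromal sum came from Col1a1 and Col1a2.

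Of the other hydrolases, Ephx3 and Ephx4 were nearly silent in these cells and Lta4h was not. Ephx3, which can hydrolyse fatty acid epoxides, had 2 reads in all over the 10 fresh libraries and 0 in the cultured ones. Ephx4, a relative whose substrate is not settled, had at most 8 reads in any library, and both stayed below the filter. Lta4h, the hydrolase that makes leukotriene B4, was at 65.4 ± 5.00 CPM in Con and 64.2 ± 4.83 CPM in EM (SD, n = 5), a log2 fold change of -0.03 (SE 0.09). The imprinted relative Mest had a log2 fold change of -0.21 (SE 0.23). Per kb of exon Lta4h stood at 10.7 ± 0.819 CPM per kb in Con, against 361 ± 101 for Ephx2 and 89.2 ± 14.8 for Ephx1 (SD, n = 5).

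On the supply side, most epoxygenases of the list were at or near 0. Of 24 Cyp2c, Cyp2j and related genes, 21 fell below the filter in fresh mGCs, 10 of them with 0 reads in all 10 libraries, and none reached more than 27 reads in a library. For EM against Con edgeR called 0 of all 17229 genes tested. The 3 tested here were Cyp2s1, Cyp2j6 and Cyp2j9, and 0 of 3 were called. Cyp2s1, the most abundant of them, was at 63.8 ± 18.9 CPM in Con and 43.4 ± 9.38 CPM in EM (SD, n = 5), with a log2 fold change of -0.56 (SE 0.20) and an adjusted p of 0.465 in edgeR, and Cyp2j6 had the value nearest 0 (-0.14). Of the 9 Cyp3a genes, 7 had 0 reads in the fresh libraries and none was tested. The electron donors that serve P450 enzymes were well expressed, with Cyb5a at 414 ± 37.2 CPM and the reductase gene Por at 118 ± 10.6 CPM in Con (SD, n = 5), and 0 of 4 were called. Their log2 fold changes ran from -0.13 for Cyb5a to 0.20 for Cyb5b.

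**Figure D4:**
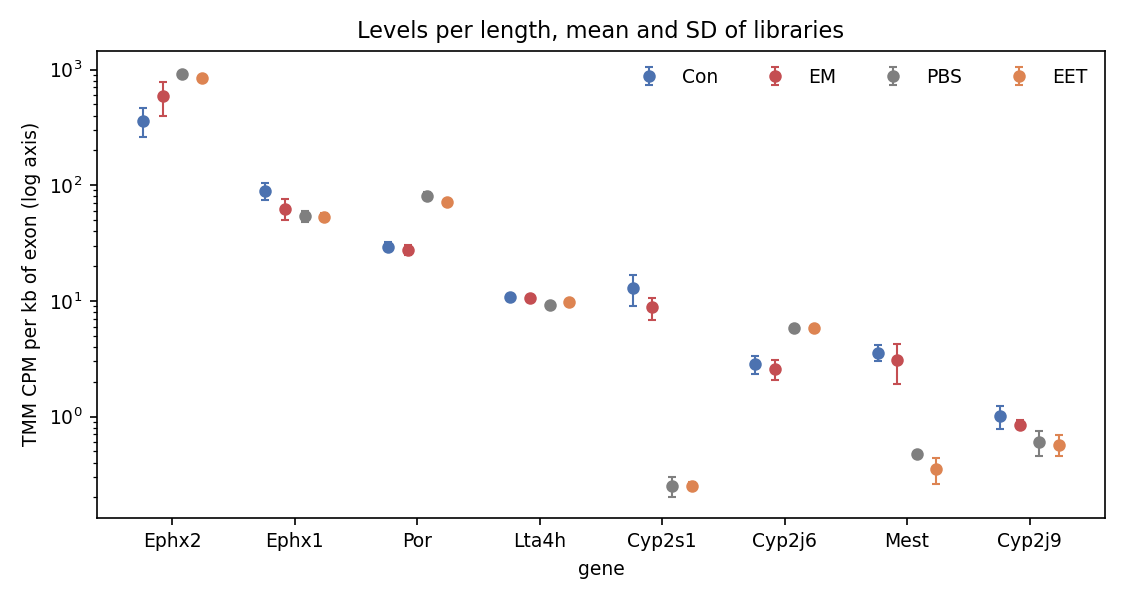
TMM CPM per kb of exon of Ephx2, Ephx1 and 6 other genes of the pathway in the 4 groups, on a log axis, as the mean and SD of the libraries. Fresh and cultured groups were scaled separately. Ephx2 is the highest of the 8 genes in each group, and the epoxygenases Cyp2s1, Cyp2j6 and Cyp2j9 reach at most 12.9 CPM per kb in any group, against 361 or more for Ephx2.

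The other branches of the pathway held no call between EM and Con either, where edgeR called 0 of all 17229 genes tested. Counts of calls in that comparison therefore set no list apart. Over the 68 tested genes of the lists other than the members, the median log2 fold change was -0.03, against -0.01 over all genes tested. Among phospholipases that release arachidonic acid, 0 of 6 were called, with values from -0.39 for Pla2g4b to 0.15 for Pla2g4a, and Pla2g6 was the most abundant (64.1 ± 4.81 CPM in Con, SD, n = 5). Of the omega-hydroxylases, which compete for arachidonic acid, 0 of 8 tested were called. Cyp4f18, known for its role in neutrophils, had the largest value at 1.93 (SE 0.61, adjusted p 0.437 in edgeR) and Cyp4f39 the lowest at -0.63, with Cyp4f13 the most abundant. For storage and binding of EETs, 0 of 11 were called, from Fabp4 at -0.47 to Fabp7 at 0.57, led in level by the acyl-CoA synthetase Acsl4 (214 ± 62.5 CPM in Con, SD, n = 5). For proposed EET targets, 0 of 8 were called, from Kcnmb1 at -0.34 to Kcnma1 at 0.36, and Pparg, the most abundant, was at -0.03. The NRF2 and xenobiotic response list, to which Ephx1 is often assigned, had 0 of 17 called, from Ahrr at -0.59 to the glutathione transferase Gstp1 at 0.47, with Gstm1, the most abundant, at -0.22.

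The study also asked about EZH2, the methyltransferase that places the repressive mark H3K27me3, in relation to Ephx2. Ezh2 was at 75.9 ± 3.22 CPM in Con and 72.1 ± 15.5 CPM in EM (SD, n = 5), a log2 fold change of -0.07 (SE 0.13, adjusted p 0.872 in edgeR). Kdm6b, which removes the mark, had a log2 fold change of -0.17 (SE 0.10), the lowest of its list, and Jarid2 the highest at 0.19. Of the 9 polycomb and H3K27 demethylase genes 0 were called, as of all 17229 genes tested, and Rbbp7 was the most abundant. These are transcript levels and say nothing of the protein, its place in the cell or the mark.

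**Figure D5:**
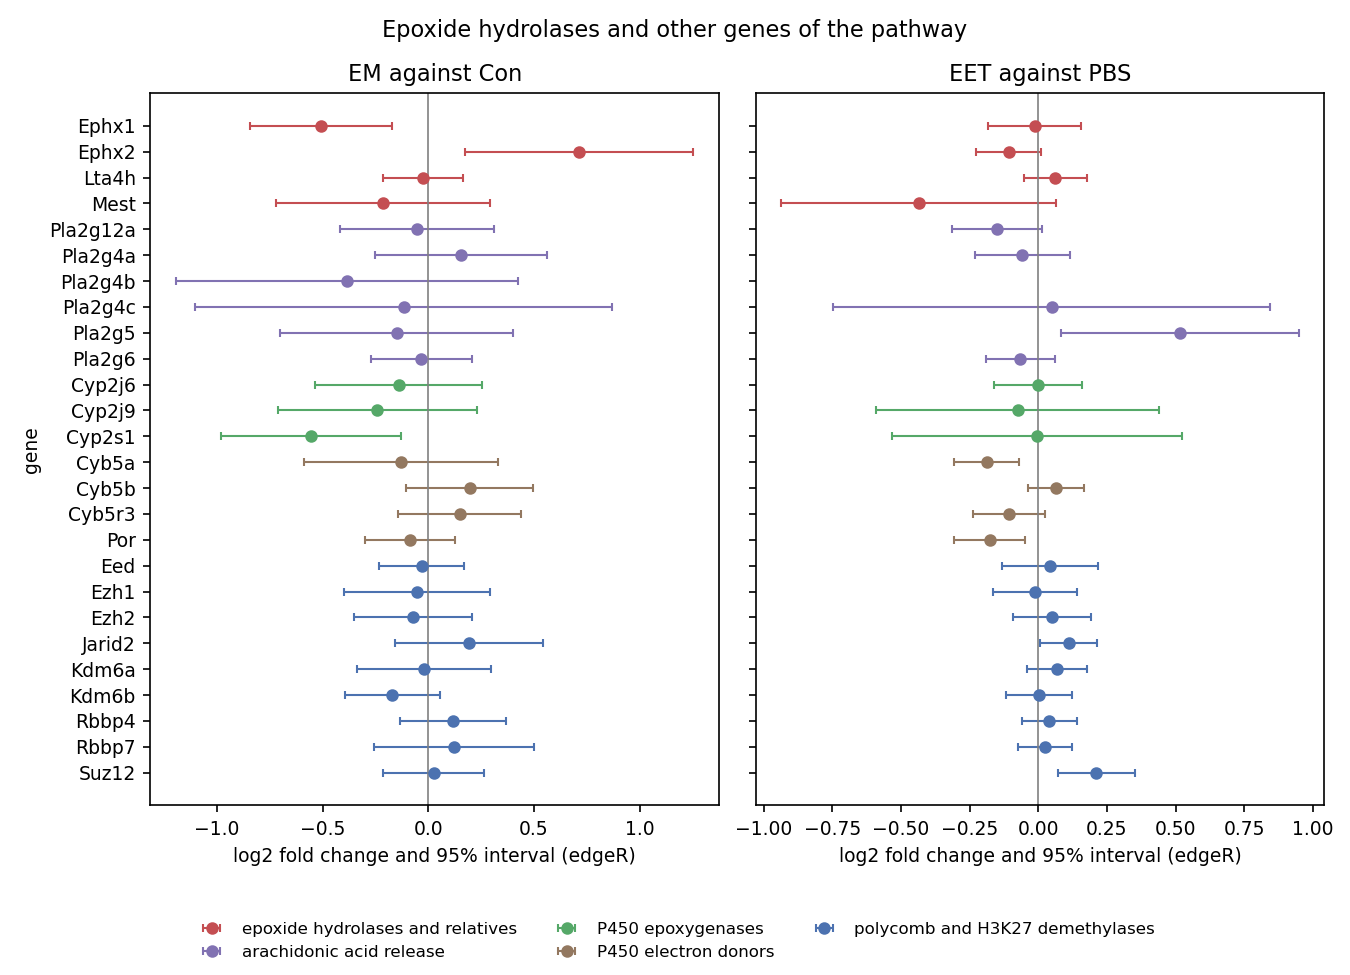
Log2 fold changes with 95% intervals (edgeR) of the epoxide hydrolases and of 4 gene lists around them, for EM against Con (left) and EET against PBS (right); the horizontal axes differ in range. For Ephx1, Ephx2 and Cyp2s1 the unadjusted EM interval leaves out 0, as does the unadjusted EET interval for Pla2g5, Cyb5a, Por, Jarid2 and Suz12. No gene shown was called in either comparison after adjustment. In all, edgeR called 0 of 17229 genes tested for EM against Con and 184 of 15050 for EET against PBS.

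Adding 14,15-EET to cultured EM mGCs left Ephx1 within the spread between libraries and went with Ephx2 values at a fold of 0.928, a difference that did not pass the test. The comparison asks whether the substrate of EPHX2 alters transcripts of these cells. Ephx1 was at 118.9, 95.2 and 101.8 CPM in PBS-1 to PBS-3 and at 96.5, 108.4 and 108.0 CPM in EET-1 to EET-3, so the groups overlapped. The log2 fold change was -0.01 (SE 0.08, 95% interval -0.18 to 0.15), with an adjusted p of 0.966 in edgeR. Ephx2 was at 2149.6, 2308.2 and 2334.9 CPM in PBS and at 2148.9, 2116.4 and 2036.0 CPM in EET. Its groups did not overlap, by a margin of under 1 CPM between PBS-1 and EET-1, as was so for 17.6% of the genes tested. The log2 fold change was -0.11 (SE 0.05, 95% interval -0.23 to 0.01), with an unadjusted p of 0.0708 and an adjusted p of 0.448 in edgeR, which called 184 of 15050 genes (1.22%) and neither member. As folds, the 95% intervals ran from 0.882 to 1.11 for Ephx1 and from 0.854 to 1.01 for Ephx2. With equal replicate numbers taken as pairs in a replicate block, the values were -0.01 and -0.11 with adjusted p of 0.969 and 0.370 in edgeR, and 341 genes were called.

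The count ratio of Ephx2 to Ephx1 was 18.1, 24.2 and 22.9 in PBS and 22.3, 19.5 and 18.9 in EET. The groups overlapped, and the mean log2 ratio differed by -0.10 (SE 0.15), with p = 0.6 in a two-sided exact permutation test that cannot go below 0.1 with 3 against 3. Among the other 63 tested genes of the pathway lists 1 was called, where 1.22% of all genes tested were called. That gene was Gstp1, which conjugates glutathione to electrophiles. It fell by 0.29 on the log2 scale (SE 0.05, adjusted p 0.0236 in edgeR), from 151 ± 10.1 CPM in PBS to 123 ± 2.48 CPM in EET (SD, n = 3). In the same list Gstm1 was the most abundant (0.14) and Ahrr the highest (0.44). Ezh2 had a log2 fold change of 0.05 (SE 0.07), Kdm6b of 0.00 (SE 0.06), and of their list Suz12 was the highest at 0.21, Ezh1 the lowest at -0.01 and Rbbp7 the most abundant at 0.03. The other lists held 0 calls: Lta4h at 0.06 and Mest at -0.44; Pla2g5 at 0.51, Pla2g12a at -0.15 and Pla2g4a at -0.06; Cyp2j6 at 0.00 and Cyp2j9 at -0.08; Cyb5b at 0.07, Cyb5a at -0.19 and Cyb5r3 at -0.11. Among the rest, Cyp2u1 was at 0.20, Cyp4f15 at -1.02 and Cyp4f17 at 0.02. The storage genes Acsl5, Mboat7 and Lpcat3 were at 0.15, -0.10 and 0.10. Of the targets, Kcnma1 was at 0.23, Trpc6 at -1.01 and Pparg at 0.06. Cyp4f15 (SE 0.35) and Trpc6 (SE 0.23) had low levels, at 0.709 ± 0.182 and 2.64 ± 0.345 CPM in PBS (SD, n = 3). Their adjusted p was 0.242 and 0.0592 in edgeR. The granulosa marker Inha fell by 0.36 on the log2 scale in the same comparison (adjusted p 0.0430 in edgeR), and 1 gene each of the luteal, smooth muscle and surface epithelial lists was called, and their part in the Ephx2 values was not tested.

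Set against fresh mGCs of EM mice, cultured PBS mGCs had more Ephx2, while Ephx1 did not pass the test. In one fit of these 8 libraries Ephx2 rose from 1337 ± 437 CPM in EM (SD, n = 5) to 2522 ± 111 CPM in PBS (SD, n = 3), every PBS library being above every EM library. The log2 fold change was 0.92 (SE 0.24), with an adjusted p of 0.00699 in edgeR. Here 69.0% of the 17301 genes tested were called and 66.3% did not overlap between the groups, so a call was the common outcome, and the median gene stood at -0.11. Ephx1 was at 111 ± 24.7 CPM in EM (SD, n = 5) and 117 ± 13.6 CPM in PBS (SD, n = 3), a log2 fold change of 0.08 (SE 0.17, adjusted p 0.708 in edgeR) whose sign depended on the scaling. With upper-quartile scaling it was -0.17 and that of Ephx2 was 0.66, still called. Culture, serum, the animals and the experiment differed together between these groups and cannot be told apart, and the EM libraries are the same ones that were set against Con above. The mitochondrial share of counts was 1.18% to 1.64% in PBS and 8.09% to 21.8% in EM. Beside the granulosa markers that were nearly absent from PBS, most theca and luteal markers had lower means there, with separate scaling. Cyp17a1 was at 224 ± 63.1 CPM in EM (SD, n = 5) and 0.0316 ± 0.0548 CPM in PBS (SD, n = 3), and Lhcgr at 894 ± 197 CPM and 0.288 ± 0.0934 CPM. Only Aldh1a1, of the theca list, and Parm1, of the luteal list, stood higher in PBS. Aldh1a1 was at 469 ± 120.4 CPM in EM (SD, n = 5) and 3387 ± 329 CPM in PBS (SD, n = 3), and Parm1 at 83.4 ± 49.4 CPM and 1535 ± 142 CPM. The part of these markers in the Ephx2 difference was not tested.

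The log2 ratio of Ephx2 to Ephx1 counts was 3.56 ± 0.44 in EM (SD, n = 5) and 4.43 ± 0.23 in PBS (SD, n = 3), without overlap. That difference of 0.87 (SE 0.24) had p = 0.0357 in a two-sided exact permutation test, the smallest this design allows, and an adjusted value of 0.0536 over the 3 comparisons. Around the members, 28 of 68 tested list genes rose and 19 fell, where 31.1% of all genes tested rose and 37.9% fell. So many genes were called that the calls given here describe each list and set none apart. In the NRF2 list 12 rose and 1 fell of 17: Ahr, Ahrr, Gclm, Gsr, Gstm1, Gstp1, Hmox1, Keap1, Nfe2l2, Nqo1, Srxn1 and Txnrd1 rose, and Gsta4 fell. Hmox1, which breaks down heme, went from 55.6 ± 9.24 to 344 ± 53.6 CPM. Of the electron donors Por, Cyb5r3 and Cyb5b rose, Por by 1.85 on the log2 scale (SE 0.11), and Cyb5a, the most abundant, did not pass. The epoxygenases Cyp2j6 and Cyp2s1 went apart, Cyp2j6 at 1.47 (SE 0.18) and Cyp2s1 at -4.82 (SE 0.24). Mest fell by 2.38, while Lta4h, at 0.12 (SE 0.09), did not pass.

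In the remaining lists calls went in both directions. Of the phospholipases Pla2g12a (1.41) and Pla2g4a rose and Pla2g4b, Pla2g4c (-5.98) and Pla2g5 fell. Of the omega-hydroxylases Cyp2u1 (2.87), Cyp4f16 and Cyp4f17 rose and Cyp4f15, Cyp4f18 and Cyp4f39 (-3.40) fell. Of the storage genes Acsl5, Fabp7 (4.64), Lpcat3 and Mboat7 rose and Acsl4, Acsl6, Fabp3, Fabp4 (-3.69) and Fabp5 fell. Of the targets Gpr39 (1.71) and Ppard rose and Kcnma1, Kcnmb1, Trpc6 and Trpv4 (-2.82) fell. Kdm6b rose by 1.31 (SE 0.11) and Suz12 fell by 0.87 (SE 0.14), while Ezh2 was at -0.35 (SE 0.16, adjusted p 0.0672 in edgeR).

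Across the 4 groups, with all 16 libraries scaled together, Ephx2 ran from Con (825 ± 235 CPM) through EM (1358 ± 439 CPM, both SD, n = 5) and EET (2405 ± 71.9 CPM) to PBS (2602 ± 118 CPM, both SD, n = 3). The ranges of Con and EM overlapped, while both cultured groups lay above all fresh libraries and touched each other, at 2330.5 to 2474 CPM in EET and 2471 to 2701 CPM in PBS. Ephx1 ran from EM (113 ± 23.4 CPM, SD, n = 5) through EET (119 ± 7.17 CPM) and PBS (121 ± 14.3 CPM, both SD, n = 3) to Con (160 ± 26.8 CPM, SD, n = 5). Of these only Con stood apart from its neighbour by more than the SD of either, though its lowest library (131.0 CPM) was below the highest PBS library (137 CPM), and the order of the other 3 lay within their spread.

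Among the 5 genes whose levels over the 10 fresh libraries were most like Ephx1, of 10540 compared, were Dhrs7 (Pearson r = 0.94), Dnajc15 (0.92), Smtnl2 (0.91) and Aldh1a1 (0.91), on log2 CPM. Over the 6 cultured libraries the same pairs stood at -0.54, 0.45, -0.49 and 0.64. For Ephx2 the 5 were Bzw1 (0.98), Cyp4f18 (0.96), S100a6 (0.96), Slc16a11 (0.96) and Tmem59 (0.96) in fresh libraries, and 0.65, 0.02, -0.09, 0.49 and -0.42 in cultured ones. These pairs share libraries and the EM and Con contrast, and values chosen as the highest of many are a description only, which the cultured libraries mostly did not repeat. With each group's mean removed, the same pairs in fresh libraries stood at 0.94, 0.94, 0.85 and 0.79 for Ephx1 and at 0.93 to 0.96 for Ephx2. The genes were chosen on these same libraries, so the values with group means removed are no separate check. Neither member shared its locus with a well-counted gene. The pseudogene Gm36961 overlaps Ephx1 on the same strand and had at most 2 reads in a library, and the pseudogene Gm37431 beyond Ephx1 had 0. Tmem63a, 1097 bases from the other end of Ephx1, had a log2 fold change of 0.11 (SE 0.17) for EM against Con. The neighbours of Ephx2 were Adam2, 6640 bases away, and Chrna2, 10538 bases away, with mean levels of 1.37 and 1.66 CPM in Con. Their log2 fold changes for EM against Con were 1.07 (SE 0.44, adjusted p 0.510) and 0.95 (SE 0.43, adjusted p 0.522) in edgeR, and neither was called.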

How the data were processed

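Poly(A) RNA of mouse granulosa cells was sequenced from stranded libraries with 150 bp paired ends in 16 samples. The authors deposited raw read counts per Ensembl gene in 1 table per experiment, made with featureCounts. The submitters' processing notes name fastp, HISAT2, StringTie and GRCm39, and versions, strand setting and handling of multimapping reads are not given in the sources used here. Total counts were 14229123 to 15999234 in fresh and 21384686 to 29482826 in cultured libraries, and 0 columns were left out.

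Genes were kept with filterByExpr, scaled with TMM and compared with edgeR 4.0.16 (quasi-likelihood test, Benjamini-Hochberg adjustment over all genes tested, R 4.3.3), with each comparison in its own fit. DESeq2 1.42.0, the authors' tool, was an alternative. Log2 CPM for likeness used a prior count of 2 and a mean of at least 3. Count ratios used 0.5 added to each count and exact permutation tests (scipy). Genes were named by a fixed rule: both members, called list genes, and the most abundant, highest and lowest gene of each list. The members and lists were chosen with earlier results of these data known. Equal replicate numbers were not shown to mark pairs, with correlations of deviations of 0.0602, 0.0980 and -0.0237 between PBS and EET and -0.252 to 0.225 between Con and EM. The fits were tested on simulated counts. Reference tables held no protein sequences, and promoters are not shown. Of the genes most like Ephx1, 1 is not reported here.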

Additional observations from a re-analysis of the deposited data

Results flagged for a closer look

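Among 32 sets of 5 fresh libraries examined, 4 held a library far from the other 4, where chance gives about 1 in 20. EM-3 had 21.8% of its counts on mitochondrial genes and 17413 CPM of summed red blood cell markers, the highest EM values by a wide gap. It was also the EM library with the most Ephx1 (156.4 CPM) and the lowest ratio of Ephx2 to Ephx1 counts (7.37), and without it the log2 fold change of Ephx1 was -0.61 and that of Ephx2 0.79. EM-2 was far below the other EM libraries in macrophage markers, at 93.0 CPM. Con-3 was far above the other Con libraries in neutrophil markers, at 38.1 CPM. The levels of Ephx1 and Ephx2 and their ratio held no such library in either group.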

How the results depend on the processing

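For EM against Con, Ephx1 and Ephx2 kept their direction and stayed uncalled in all 17 alternatives, with adjusted p from 0.155 to 0.862 and from 0.183 to 0.862. Leaving out each library gave log2 fold changes of -0.61 to -0.41 and 0.51 to 0.82. Genes called there went from 0 to 112 with DESeq2, 4 without the filter, 2 with the replicate block and 0 to 46 without single libraries (46 without Con-3, 1 without EM-1, otherwise 0). The count ratio of EM against Con kept an unadjusted p of 0.0317 or less in all 11 alternatives, between 0.99 and 1.40 without single libraries, but its adjusted p, from 0.0476 to 0.0857, passed in 3 of the 11 (without Con-2, without EM-3 and on the share scale). For EET against PBS, Ephx2 stayed between -0.14 and -0.09, uncalled, while Ephx1 ran from -0.082 to 0.082 and changed sign without PBS-1 or EET-1. Genes called there were 324 with DESeq2, 662 without the filter, 341 with the replicate block and 48 to 436 without single libraries (350 without PBS-1, 436 without PBS-2, 122 without EET-1, 61 without EET-2 and 48 without EET-3). The cause of these shifts in counts was not tested. The replicate block changed no call on the members, and with it the ratio differed by -0.10. For PBS against EM, Ephx2 stayed called in all 14 alternatives. Ephx1 became -0.17 with upper-quartile scaling, -0.077 with at least 10 reads in every library and -0.015 with protein-coding genes only, and ran from -0.028 to 0.17 without single libraries. The ratio ran from 0.70 to 1.00 without single libraries, where p could not go below 0.0571 or 0.0952 and so missed the threshold by design. Each gene had at least 1462 reads in each library, and the spread between libraries, whose source was not tested, is what the errors given here measure.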
